A study of Sus scrofa with 12 samples.

Results

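The autophagy genes of the pig (Sus scrofa), together with TP53INP2, were followed through oocyte maturation in vitro. They were taken by symbol from the deposited gene table: the numbered ATG genes, the MAP1LC3, GABARAP, ULK and WIPI families, and a named set of kinase partners, cargo receptors, mitophagy genes and regulators. The rule found 45 of the 28965 genes in the table, and 42 of the 45 had enough counts to be tested, among 12977 genes tested in all. RNA came from denuded oocytes, which are oocytes stripped of their cumulus cells, at 0, 12, 28 and 44 h, and each time had 3 libraries. The series title states that maturation took place in a chemically defined medium, and time is the only difference between the groups that the labels give; breed, animal age and the number of oocytes per library are not given in the sources used here. Whether replicate libraries stem from different animals or cultures is not stated, so each p-value reflects the spread between libraries, which may be technical.

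Autophagy encloses cytoplasm in a double membrane and delivers it to the lysosome. The ULK kinase complex starts the process, a class III phosphatidylinositol 3-kinase marks the growing membrane, ATG2 and WIPI proteins supply and read that membrane, and a conjugation cascade attaches ATG8 proteins (the LC3 and GABARAP families) to its lipid. Cargo receptors link ubiquitin-marked material or mitochondria to the ATG8 proteins, and in mammalian embryos autophagy is best known for clearing maternal material after fertilisation.

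Libraries held between 21877235 and 26015373 gene counts. Levels of a gene over time are given in CPM, which are counts put on a common library size by TMM, in the order of the replicate numbers (replicates 2, 3 and 4 of both 0 h and 28 h, replicates 1, 3 and 5 of 12 h, and replicates 1, 2 and 4 of 44 h). CPM are shares of a library, no added standard RNA is named, and in bulk libraries fewer cells of a type and less RNA per cell cannot be told apart. Of 14 oocyte markers, 12 were in the table and all 12 were detected in every library; they summed to between 14245 and 16707 CPM at 0 h and between 10030 and 10289 CPM at 44 h. Of 23 cumulus and granulosa cell markers, 22 were in the table and 14 to 19 were detected per library, summing to between 440 and 521 CPM. FSHR, the defining receptor of granulosa cells, had 0 counts in every library. Replicate 1 of 44 h stood apart on other markers of these cells: it had 122 counts of PTGS2, against 4 and 7 in the other 44 h libraries, 111 of VIM, against 6 and 7, 67 of INHA, against 0 and 0, and 26 of CYP19A1, against 0 and 0. AMH, GATA4 and VCAN made up most of the list's sum, which therefore does not show this. Blood and immune cell markers summed to between 35.9 and 47.5 CPM.

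Levels between genes were compared per length, as the deposited TPM averaged over the 12 libraries. TAX1BP1, a ubiquitin-binding cargo receptor, stood highest at 1130 TPM and held 24.4% of the summed TPM of the 45 genes. ATG4A, a protease that trims ATG8 proteins, followed at 665 TPM (14.4%), and SQSTM1 (p62), the best-known cargo receptor, at 474 TPM (10.3%). Next came ATG2B, a lipid transfer protein, at 262 TPM and ATG16L1, which places the conjugation machinery on the membrane, at 197 TPM. In all, 11 of the 45 genes averaged over 100 TPM and 36 over 10 TPM. The median of the 42 tested genes was 42.4 TPM, against 19.7 TPM for all genes tested, and 31 of the 42 lay above that value. TP53INP2 ranked 29th by this measure at 30.8 TPM, while its paralog TP53INP1 stood at 175 TPM.

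**Figure D1:**
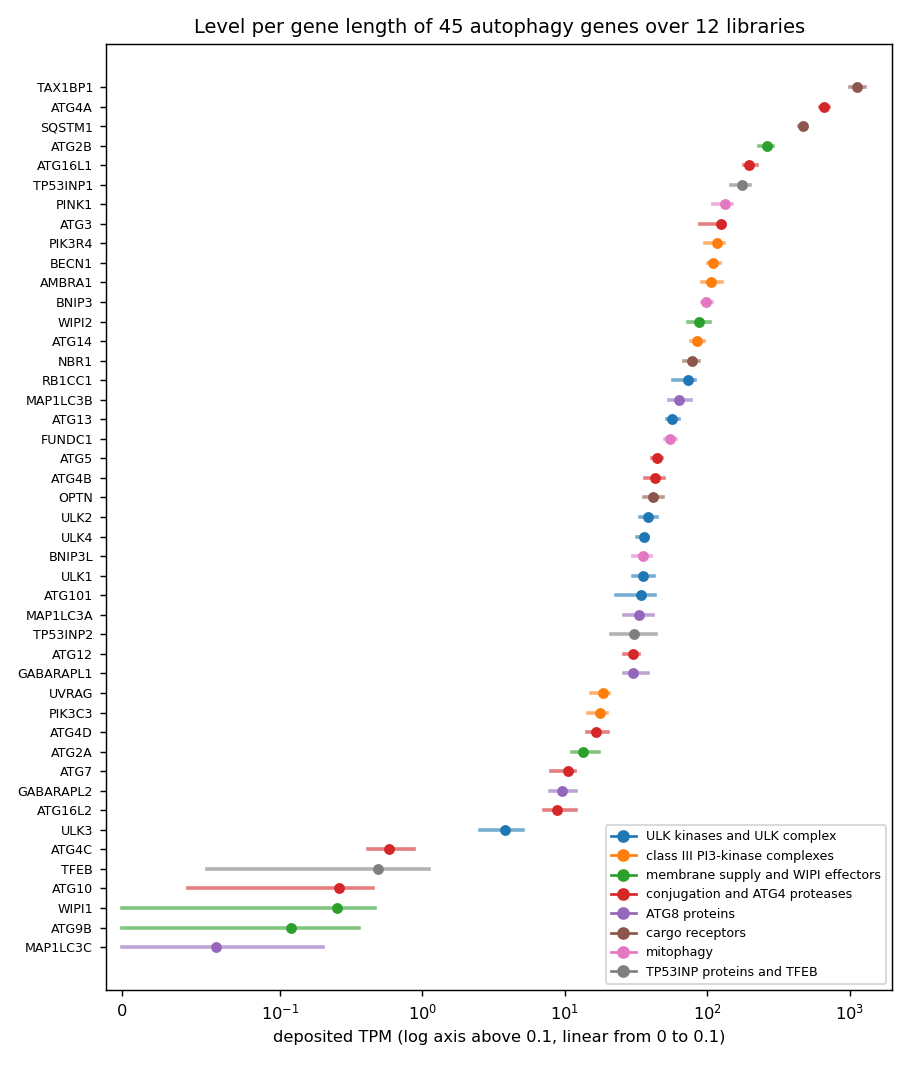
Mean deposited TPM (log axis above 0.1, linear below) of each of the 45 autophagy genes over 12 libraries, with the range over libraries. TAX1BP1 stands highest at 1130 TPM, 11 genes lie over 100 TPM and 6 lie under 1 TPM.

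At the low end, 6 genes averaged under 1 TPM. ATG10, the E2-like enzyme that joins ATG12 to ATG5, had 1 to 10 counts per library, and ATG9B and MAP1LC3C, paralogs of ATG9A and MAP1LC3B, each had 0 to 6 counts; these are the 3 genes that were not tested. TFEB, a transcription factor of lysosome genes, had 1 to 21 counts and WIPI1 0 to 13 counts, while the protease ATG4C averaged 1.36 ± 0.440 CPM at 44 h. For TFEB and WIPI1 the standard errors of the 44 h against 0 h log2 fold change were 0.82 and 0.85, so changes of moderate size were not detectable at this depth.

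TP53INP2 had the largest change of the 42 tested genes in the first 12 h. It encodes a protein that shuttles between nucleus and cytoplasm and binds ATG8 proteins (ENSSSCG00000022099, Sscrofa11.1 chromosome 17, 38104200 to 38113165, plus strand). Its levels were 22.1, 23.6 and 23.3 CPM at 0 h, 39.5, 42.2 and 45.6 CPM at 12 h, 28.9, 31.1 and 30.6 CPM at 28 h, and 30.9, 29.9 and 29.3 CPM at 44 h. Every 12 h library lay above every library of the other times, every 0 h library lay below all others, and the 28 h and 44 h libraries overlapped. These levels rested on 532 to 1119 counts per library.

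Between 12 h and 0 h TP53INP2 rose 1.84-fold, to 42.4 ± 3.08 CPM at 12 h, against 23.0 ± 0.815 CPM at 0 h (SD, n = 3 each). The log2 fold change was 0.88 (SE 0.09), and the quasi-likelihood test of edgeR, Benjamini-Hochberg adjusted over all genes tested, gave an adjusted p of 3.61e-06. It was the only one of the 42 genes called at this step, and 6 of the 42 had an unadjusted p under 0.05. Of all genes tested, 0.208% were called (0.177% higher, 0.0308% lower). The 42 genes, TP53INP2 among them, were chosen with earlier results of these data known, so this comparison is not a test of the set. In all 21 alternative fits it was called, with log2 fold changes between 0.80 and 0.93. Levels of 4 of the 42 genes, TP53INP2 among them, were higher and of 3 lower at 12 h with no overlap between libraries, beside 6.3% and 7.05% of all genes tested. Leaving out 0 h replicate 3 gave 1 further call, MAP1LC3B, which was lower at 12 h (adjusted p 0.0372 in that fit).

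From 12 h to 28 h TP53INP2 fell, to 30.2 ± 1.13 CPM at 28 h, against 42.4 ± 3.08 CPM at 12 h, a log2 fold change of -0.49 (SE 0.09; edgeR adjusted p 0.0178). Again it was the only gene called of the 42, with 0.262% of all genes tested called (0.108% higher, 0.154% lower) and 1 of the 42 at an unadjusted p under 0.05. The groups of libraries did not overlap, but the call rested on several libraries: it ended without 12 h replicate 3 or 5 or any 28 h library, with edgeR adjusted p between 0.0506 and 0.18. With 0 calls left in those fits, the direction was still downward in each. Levels of 1 of the 42 genes were higher and of 4 lower at 28 h with no overlap, beside 5.35% and 6.17% of all genes tested. In the last step TP53INP2 stood at 30.02 ± 0.817 CPM at 44 h, against 30.2 ± 1.13 CPM at 28 h, and the log2 fold change was -0.01 (SE 0.09; edgeR adjusted p 0.983). Over the whole course it was higher at 44 h than at 0 h, with a log2 fold change of 0.39 (SE 0.09; edgeR adjusted p 0.00469), and this call remained in all 21 alternatives.

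**Figure D2:**
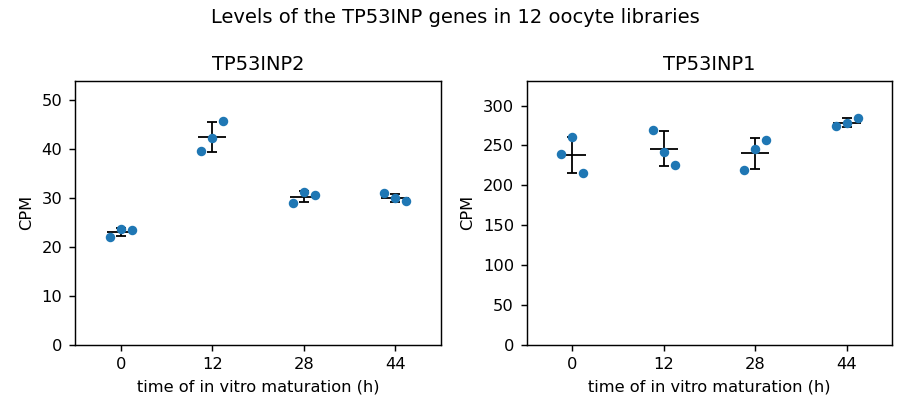
CPM of TP53INP2 (left) and TP53INP1 (right) in each of the 12 libraries by hours of maturation; horizontal lines are means and bars the SD of 3 libraries. TP53INP2 peaks at 12 h (39.5 to 45.6 CPM), while TP53INP1 is at its highest at 44 h (274 to 284 CPM).

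TP53INP1, a target of p53 that also binds ATG8 proteins (ENSSSCG00000034321, chromosome 4, 41747726 to 41766684, plus strand), showed no such early peak. It was measured at 239, 261 and 215 CPM at 0 h, 269, 242 and 226 CPM at 12 h, 219, 245 and 256 CPM at 28 h, and 274, 278 and 284 CPM at 44 h. Only the 44 h libraries lay above all the others. Its log2 fold change was 0.04 between 12 h and 0 h (edgeR adjusted p 0.883) and 0.23 (SE 0.08; edgeR adjusted p 0.0438) between 44 h and 0 h. The later call was close to the threshold and ended in the fits without 0 h replicate 2 or 4, 12 h replicate 3, 28 h replicate 3 or any 44 h library (edgeR adjusted p 0.0507 to 0.222). With library totals alone as the scaling, the adjusted p was 0.0514.

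Between 44 h and 28 h, 3 of the 42 genes fell and 0 rose, beside 4.69% of all genes tested (0.393% higher, 4.3% lower). Levels of 7 genes were higher and of 6 lower at 44 h with no overlap between libraries, beside 9.8% and 13.3% of all genes tested. The 3 genes called were ATG101, ATG3 and PIK3R4, each of which also fell against 0 h. At an unadjusted p under 0.05 the number was 5, and DESeq2 and limma-voom called 3 as well. ATG101, a subunit that stabilises the ULK complex, stood at 7.69 ± 0.335 CPM at 44 h, against 11.5 ± 1.20 CPM at 28 h (log2 fold change -0.58, SE 0.14, edgeR adjusted p 0.0138). ATG3, the enzyme that attaches ATG8 proteins to lipid, was at 52.7 ± 8.07 CPM at 44 h, against 66.6 ± 1.95 CPM at 28 h (log2 fold change -0.34, SE 0.09, edgeR adjusted p 0.0267). PIK3R4 (VPS15), the regulatory subunit of the class III PI3-kinase, was at 178 ± 12.8 CPM at 44 h, against 216 ± 4.07 CPM at 28 h (log2 fold change -0.28, SE 0.07, edgeR adjusted p 0.0163). Each of the 3 calls was lost when any 1 of several libraries was left out. Over the 21 alternatives the log2 fold changes stayed negative. They lay between -0.65 and -0.51 for ATG101, -0.45 and -0.22 for ATG3, and -0.33 and -0.24 for PIK3R4. The number called was 0 in each of 3 fits, which left out replicate 2 of 28 h, replicate 1 of 44 h or replicate 2 of 44 h. It was 1 without 28 h replicate 3 or 4. By gene, ATG101 was lost in 4 of these fits (replicate 2 or 4 of 28 h, replicate 1 or 2 of 44 h; edgeR adjusted p 0.0505 to 0.102), PIK3R4 in 4 (replicate 2 or 3 of 28 h, replicate 1 or 2 of 44 h; 0.0735 to 0.124) and ATG3 in 5 (any 28 h library, replicate 1 or 2 of 44 h; 0.0526 to 0.25).

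Over the whole course, 13 of the 42 genes differed between 44 h and 0 h, 6 higher and 7 lower at 44 h. That is 31% of the genes, where 19.9% of all genes tested were called (8.3% higher, 11.6% lower). These shares are no test of the set, which was chosen with earlier results of these data known. The median log2 fold change was 0.01 for the 42 genes and 0.00 for all genes tested. Levels did not overlap between the 44 h and 0 h libraries for 11 genes that were higher and 7 that were lower, beside 15.8% and 17.7% of all genes tested. At an unadjusted p under 0.05 there were 17 genes, and DESeq2 called 15 and limma-voom 13. The count depended on the libraries: it was 8 without 0 h replicate 2 or without 44 h replicate 4, and 9 in each of 3 fits, which left out replicate 4 of 0 h, replicate 1 of 44 h or replicate 2 of 44 h. In a test of any change over the 4 times, 6 of the 42 passed, beside 13.1% of all genes tested: TP53INP2, PIK3R4, MAP1LC3B, ATG101, ATG3 and AMBRA1. That number was 10 without 0 h replicate 3, and 10 by DESeq2. Of the 12 oocyte markers, 10 fell and 1 rose. Of 12 tested cumulus and granulosa cell markers, 3 rose (INHBA, PTGS2 and GATA4) and 1 fell (AMH), while the list summed to between 445 and 484 CPM at 44 h, against 440 to 509 CPM at 0 h. The PTGS2 call rested on 44 h replicate 1, the library that stood apart on these markers: without it the edgeR adjusted p was 0.684 for PTGS2 and 0.0522 for GATA4, while INHBA (0.0057) and AMH (0.0453) remained and HSD17B1 was called lower (0.0128). Without that library 9 autophagy genes were called between 44 h and 0 h, 0 between 44 h and 28 h and 4 for any change. The part of these markers in the changes of the autophagy genes was not tested.

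**Figure D3:**
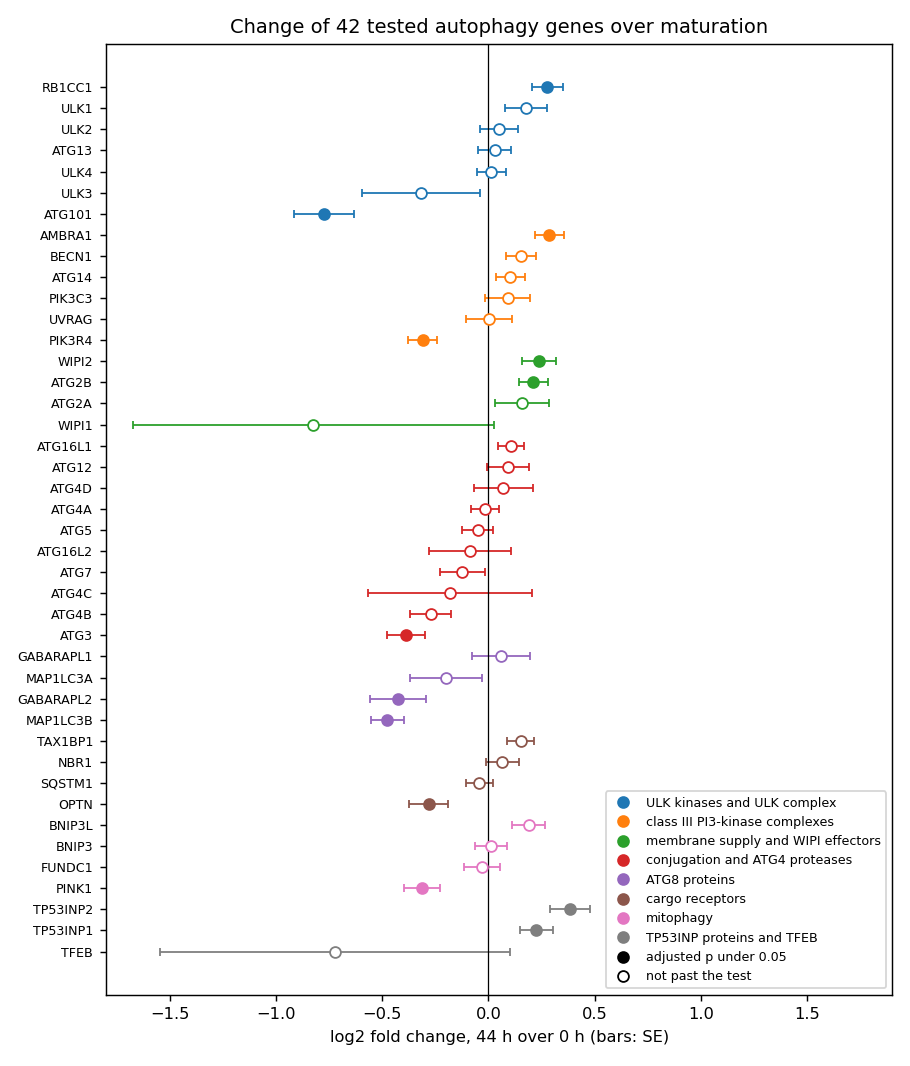
Log2 fold change of the 42 tested autophagy genes between 44 h and 0 h, by role; bars are standard errors and filled points passed the edgeR test at an adjusted p under 0.05. Among the filled points, 6 lie to the right of 0 and 7 to the left, and both ATG8 genes that passed lie to the left.

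The counts by role below are for 44 h against 0 h. Among all genes tested, 8.3% were called higher and 11.6% lower. The roles hold few genes each, and no role was tested as a set. Among the 7 genes of the ULK kinases and the ULK complex, 1 rose and 1 fell. RB1CC1 (FIP200), the scaffold of the complex (ENSSSCG00000028902, chromosome 4, 77594338 to 77649550, plus strand), stood at 196, 219 and 178 CPM at 0 h, 238, 205 and 231 CPM at 12 h, 219, 234 and 234 CPM at 28 h, and 241, 238 and 239 CPM at 44 h. The 44 h libraries lay within 3 CPM of each other and above every other library. Between 44 h and 0 h the log2 fold change was 0.28 (SE 0.07; edgeR adjusted p 0.00954), a call that was lost without 0 h replicate 4 (adjusted p 0.0692). ATG101 (ENSSSCG00000033687, chromosome 5, 17418121 to 17425624, plus strand) was measured at 13.1, 12.1 and 14.3 CPM at 0 h, 11.7, 12.1 and 14.6 CPM at 12 h, 12.7, 10.3 and 11.6 CPM at 28 h, and 7.36, 7.68 and 8.03 CPM at 44 h. Every 44 h library lay below every earlier one. Its log2 fold change of -0.77 (SE 0.14; edgeR adjusted p 0.000323) was the largest of the 13 called genes, and the call remained in all 21 alternatives. ATG13, the partner that ATG101 binds, stood at 69.6 ± 2.45 CPM at 44 h, against 68.2 ± 2.47 CPM at 0 h. ULK1, the kinase itself, stood at 50.7 ± 0.479 CPM at 44 h, against 44.8 ± 3.55 CPM at 0 h, with an edgeR adjusted p of 0.231.

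Of 6 genes of the class III PI3-kinase complexes, 1 rose and 1 fell. AMBRA1, a scaffold that binds Beclin 1 (ENSSSCG00000013262, chromosome 2, 15917698 to 16119082, plus strand), stood at 147, 141 and 144 CPM at 0 h, 164, 167 and 151 CPM at 12 h, 162, 158 and 174 CPM at 28 h, and 187, 164 and 176 CPM at 44 h. All later libraries lay above the 0 h libraries, and later times overlapped with each other. The log2 fold change between 44 h and 0 h was 0.29 (SE 0.07; edgeR adjusted p 0.004), called in all 21 alternatives. PIK3R4 (ENSSSCG00000029094, chromosome 13, 1731017 to 1815556, plus strand) was measured at 213, 241 and 210 CPM at 0 h, 233, 235 and 243 CPM at 12 h, 219, 218 and 211 CPM at 28 h, and 171, 172 and 193 CPM at 44 h. The 44 h libraries lay below all others, with a log2 fold change against 0 h of -0.31 (SE 0.07; edgeR adjusted p 0.0021) that was called in all 21 alternatives. The catalytic subunit PIK3C3 stood at 33.5 ± 2.01 CPM at 44 h, against 31.4 ± 3.12 CPM at 0 h, and BECN1 (Beclin 1) at 72.5 ± 2.61 CPM at 44 h, against 65.2 ± 0.298 CPM at 0 h (edgeR adjusted p 0.143).

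Of 4 genes of membrane supply and phosphoinositide reading, 2 rose and 0 fell. ATG2B (chromosome 7, 117506301 to 117586357, minus strand) stood at 401, 415 and 398 CPM at 0 h, 491, 411 and 464 CPM at 12 h, 420, 421 and 460 CPM at 28 h, and 470, 462 and 473 CPM at 44 h. WIPI2, which reads the lipid mark and recruits ATG16L1 (chromosome 3, 3800180 to 3834413, plus strand), stood at 121, 109 and 131 CPM at 0 h, 119, 133 and 119 CPM at 12 h, 139, 118 and 134 CPM at 28 h, and 139, 150 and 136 CPM at 44 h. For both genes the 44 h libraries lay above the 0 h libraries. Log2 fold changes were 0.21 (SE 0.07; edgeR adjusted p 0.0271) for ATG2B and 0.24 (SE 0.08; edgeR adjusted p 0.0397) for WIPI2. Single libraries ended both calls: for ATG2B 0 h replicate 2 or 4 or any 44 h library (adjusted p 0.0585 to 0.0904), and for WIPI2 0 h replicate 2 or 3, 28 h replicate 4 or any 44 h library (0.0521 to 0.177). WIPI2 was also not called with library totals alone as the scaling (adjusted p 0.0807) or in a fit of the 44 h and 0 h libraries only (0.0543). The paralog ATG2A stood at 22.0 ± 4.77 CPM at 44 h, against 19.8 ± 1.31 CPM at 0 h.

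In the conjugation machinery, 1 of 10 genes fell and 0 rose. The gene that fell was ATG3 (ENSSSCG00000011930, chromosome 13, 147279437 to 147338439, plus strand), at 68.6, 68.8 and 69.8 CPM at 0 h, 67.7, 64.6 and 63.9 CPM at 12 h, 67.9, 67.6 and 64.4 CPM at 28 h, and 44.4, 53.3 and 60.5 CPM at 44 h. Earlier libraries lay close together, while the 44 h libraries were lower and spread over a wider range. Its log2 fold change between 44 h and 0 h was -0.39 (SE 0.09; edgeR adjusted p 0.00301), called in all 21 alternatives. The other 9 genes did not pass the test between 44 h and 0 h. ATG5 was at 102.3 ± 6.45 CPM at 44 h, against 105.95 ± 7.05 CPM at 0 h, ATG12 at 51.5 ± 1.12 CPM and 48.3 ± 3.18 CPM, and the E1-like enzyme ATG7 at 36.4 ± 2.67 CPM and 39.7 ± 3.72 CPM. ATG4A, the most abundant of the group, was measured at 335, 338 and 365 CPM at 0 h, 348, 320.2 and 357 CPM at 12 h, 336, 333 and 343 CPM at 28 h, and 329, 333 and 364 CPM at 44 h. These groups overlapped throughout, and the log2 fold change between 44 h and 0 h was -0.02 (SE 0.06). Its paralog ATG4B was lower at 44 h, at 48.1 ± 2.01 CPM against 58.1 ± 7.43 CPM at 0 h, and missed the threshold with an edgeR adjusted p of 0.0504. It was called in 8 of 21 alternatives, among them DESeq2 (0.0442), no filter on low counts (0.0372), library totals alone as the scaling (0.0462) and the fit without 0 h replicate 3 (0.00421), and over all 21 the adjusted p reached 0.203. ATG16L1 was at 352, 322 and 357 CPM at 0 h, 342, 341 and 346 CPM at 12 h, 349.9, 329 and 346 CPM at 28 h, and 374, 385 and 352 CPM at 44 h. Its 44 h and 0 h libraries overlapped (edgeR adjusted p 0.256).

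Among the 4 tested ATG8 genes of the rule, 2 fell and 0 rose, beside 11.6% and 8.3% of all genes tested. The median log2 fold change of the 4 was -0.31. MAP1LC3B, the LC3 protein most used as an autophagosome marker (ENSSSCG00000002655, chromosome 6, 1915387 to 1941077, minus strand), stood at 120, 105.04 and 117 CPM at 0 h, 84.4, 101.2 and 99.4 CPM at 12 h, 93.0, 96.3 and 89.9 CPM at 28 h, and 78.8, 85.2 and 81.7 CPM at 44 h. Every 0 h library lay above all later libraries, and the mean was lower at each later time. In the main fit MAP1LC3B passed the edgeR test at no single step (adjusted p 0.23, 0.98 and 0.242 in order of time). Its log2 fold change between 44 h and 0 h was -0.48 (SE 0.08; edgeR adjusted p 0.000108), called in all 21 alternatives. GABARAPL2, also known as GATE-16 (chromosome 6, 12105658 to 12132990, minus strand), was at 24.3, 22.0 and 21.1 CPM at 0 h, 15.96, 18.5 and 16.2 CPM at 12 h, 20.98, 21.94 and 15.2 CPM at 28 h, and 15.0, 17.3 and 17.8 CPM at 44 h. The 44 h libraries lay below the 0 h libraries, with the 28 h libraries spread across both ranges. GABARAPL2 had a log2 fold change of -0.43 (SE 0.13; edgeR adjusted p 0.0244), which did not pass when 0 h replicate 2 (0.114) or 44 h replicate 1 (0.123) was left out. MAP1LC3A stood at 9.74 ± 1.44 CPM at 44 h, against 11.2 ± 2.65 CPM at 0 h, and GABARAPL1 at 15.8 ± 2.55 CPM and 15.1 ± 1.298 CPM. Together the ATG8 genes of the rule made up 163 ± 11.8 CPM at 0 h, then 137 ± 10.4 CPM at 12 h. Their sum was 138 ± 5.09 CPM at 28 h, then 124 ± 7.33 CPM at 44 h. This sum leaves out GABARAP, an ATG8 gene outside the rule that is described under the other observations. Per length GABARAP averaged 89.4 TPM over the 12 libraries, against 63.2 TPM for MAP1LC3B, and it too was lower at 44 h than at 0 h.

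Of 4 cargo receptors 1 fell and 0 rose. OPTN (optineurin), which binds ubiquitin on damaged mitochondria (chromosome 10, 48530844 to 48582910, minus strand), stood at 55.3, 49.1 and 54.2 CPM at 0 h, 47.2, 51.2 and 59.1 CPM at 12 h, 44.97, 48.7 and 45.2 CPM at 28 h, and 46.3, 41.1 and 43.2 CPM at 44 h. The 44 h libraries lay below the 0 h libraries and overlapped those of 28 h. Between 44 h and 0 h OPTN had a log2 fold change of -0.28 (SE 0.09; edgeR adjusted p 0.0336); leaving out replicate 2 or 4 of 0 h, or replicate 2 or 4 of 44 h, ended the call (0.0786 to 0.133). TAX1BP1 was measured at 1206, 1271 and 1148 CPM at 0 h, 1281, 1170 and 1201 CPM at 12 h, 1246, 1285 and 1220 CPM at 28 h, and 1289, 1325 and 1410 CPM at 44 h. Its 44 h libraries lay above all others, yet the log2 fold change was 0.15 (SE 0.06) with an edgeR adjusted p of 0.089; DESeq2 gave 0.0494. SQSTM1 stood at 302, 276 and 290.2 CPM at 0 h, 268, 278 and 276 CPM at 12 h, 277, 258 and 283 CPM at 28 h, and 280.0, 274 and 289 CPM at 44 h. The times overlapped, and SQSTM1 was not called in any comparison (44 h against 0 h: log2 fold change -0.04, SE 0.06). NBR1, a receptor related to SQSTM1, stood at 104.6 ± 7.84 CPM at 44 h, against 100 ± 1.35 CPM at 0 h.

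In the mitophagy group 1 of 4 genes fell and 0 rose. PINK1, the kinase that marks damaged mitochondria (ENSSSCG00000003506, chromosome 6, 78863190 to 78884644, plus strand), was at 113, 104.8 and 115 CPM at 0 h, 94.2, 109 and 117 CPM at 12 h, 108.05, 92.6 and 97.1 CPM at 28 h, and 88.2, 96.9 and 82.7 CPM at 44 h. The 44 h libraries lay below the 0 h libraries. PINK1 had a log2 fold change of -0.31 (SE 0.09; edgeR adjusted p 0.0109), lost when 44 h replicate 4 was left out (0.0608). The mitochondrial receptors BNIP3, BNIP3L and FUNDC1 were not called. BNIP3L stood at 107.7 ± 3.47 CPM at 44 h, against 94.5 ± 5.54 CPM at 0 h (edgeR adjusted p 0.0856), BNIP3 at 57.3 ± 2.53 CPM and 56.8 ± 2.43 CPM, and FUNDC1 at 47.1 ± 1.84 CPM and 48.1 ± 2.68 CPM.

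**Figure D4:**
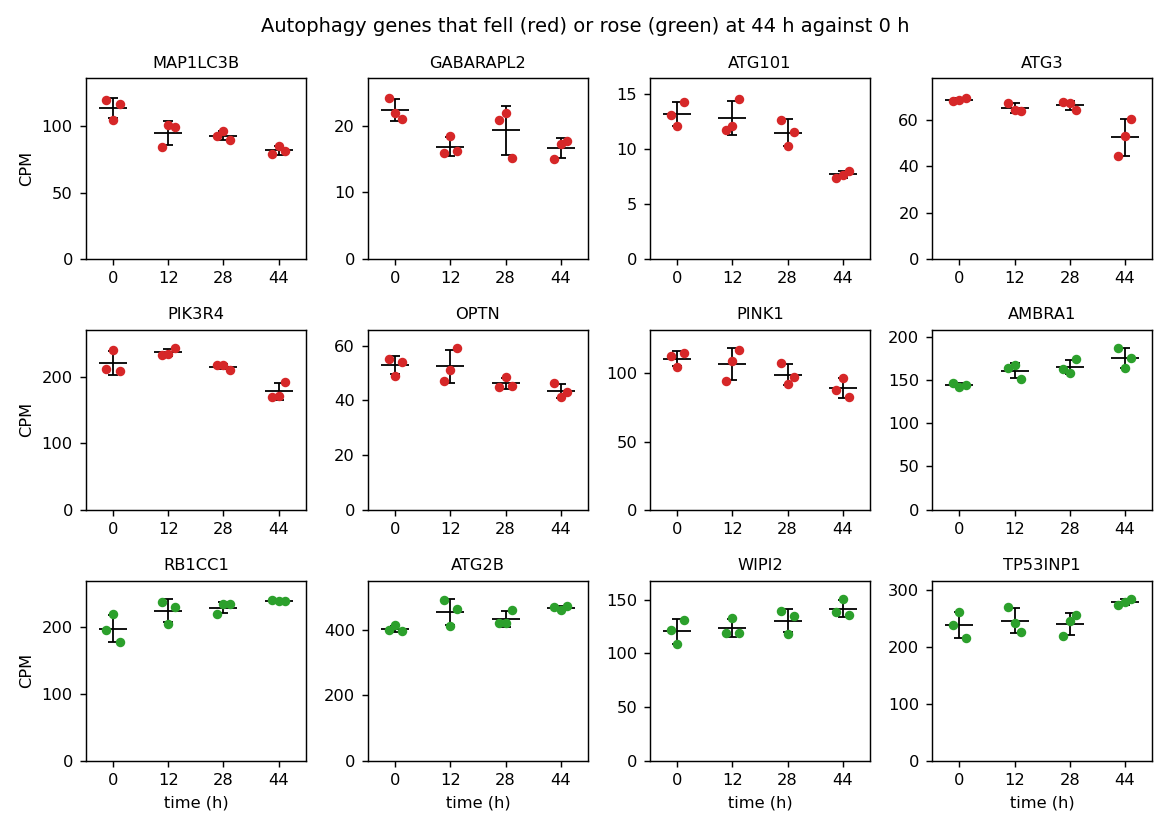
CPM in each of the 12 libraries of 12 autophagy genes that fell (red) or rose (green) between 44 h and 0 h, by hours of maturation; horizontal lines are means and bars the SD of 3 libraries. ATG101 stays between 10.3 and 14.6 CPM up to 28 h and lies between 7.36 and 8.03 CPM at 44 h. The means of MAP1LC3B are lower at each later time, though no single step passed the edgeR test.

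Some of these genes share genomic sequence with another gene, and how the counting treated such reads is not given in the sources used here. OPTN shares 52014 bases, nearly its whole length, with MCM10, a replication factor on the same strand. MCM10 had 153520 counts over the 12 libraries, against 14308 for OPTN, so the level and change of OPTN are uncertain. Between 44 h and 0 h MCM10 had a log2 fold change of 0.16 (edgeR adjusted p 0.0903), opposite in sign to that of OPTN. The whole of GABARAPL2 lies within ADAT1 on the other strand, whose log2 fold change was -0.04. Likewise the whole of MAP1LC3A (1999 bases) lies within PIGU on the other strand; PIGU had 11368 counts over the 12 libraries, against 3084 for MAP1LC3A, and fell between 44 h and 0 h (log2 fold change -0.39, edgeR adjusted p 0.00344), so the level of MAP1LC3A is uncertain. PINK1 shares 16273 bases with CDA (0.08) and AMBRA1 9460 bases with HARBI1 (0.04), both on the same strand. ATG4B shares 5846 bases with ING5 on the same strand and 1784 bases with DTYMK on the other. ING5 had 25181 counts and DTYMK 924, against 15443 for ATG4B. Between 44 h and 0 h ING5 rose (log2 fold change 0.31, edgeR adjusted p 0.0146) and DTYMK fell (-1.87, 3.65e-05). The level and change of ATG4B are therefore uncertain as well. MAP1LC3B shares 3333 bases with ZCCHC14 on the other strand, which had a log2 fold change of 0.45 and was higher at 44 h, while MAP1LC3B fell. ZCCHC14 had 54243 counts over the 12 libraries, against 28136 for MAP1LC3B, so the level of MAP1LC3B is uncertain too. MAP1LC3A and TP53INP2 are neighbours on chromosome 17, 144694 bases apart on the same strand with no whole gene between them, and AMBRA1 and ATG13 start 1588 bases apart on opposite strands of chromosome 2. Of each pair, TP53INP2 and AMBRA1 were called in at least 1 comparison and the neighbour in none. Relative gene length, taken as counts over TPM, ran with the log2 fold change between 44 h and 0 h, with a Spearman correlation of 0.28 across the 42 genes and 0.21 across all genes tested; these are correlations across genes that share the same libraries, and their part in the calls was not tested.

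The wider autophagy and lysosome pathway was described by 7 lists that held 142 further genes, of which 129 were in the table and 125 were tested. Between 44 h and 0 h, 12 of the 125 rose and 26 fell, or 30.4%, beside the 19.9% of all genes tested. Their median log2 fold change was -0.08. These lists too were chosen with earlier results of these data known. At 12 h against 0 h edgeR called 0 of the 125, with 14 at an unadjusted p under 0.05 and 0 calls by DESeq2 or limma-voom. At 28 h against 12 h it called 0, with 7 at an unadjusted p under 0.05, 1 call by DESeq2 and 0 by limma-voom. Between 44 h and 28 h 4 fell and 0 rose, or 3.2%, beside 4.69% of all genes tested (4.3% lower): ZFYVE1, TEX264, TBK1 and ATP6V0A1. ZFYVE1 and TEX264 were called in every alternative. TBK1 was lost without replicate 3 or 4 of 28 h, or replicate 2 or 4 of 44 h (edgeR adjusted p 0.0595 to 0.243). ATP6V0A1 was lost in 8 alternatives, among them upper-quartile scaling, no filter on low counts, and leaving out any 28 h library or replicate 1 or 2 of 44 h (edgeR adjusted p 0.0538 to 0.191). The 44 h against 0 h count was 22 without 0 h replicate 2 or 44 h replicate 1, and 24 without 44 h replicate 2.

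Lysosome genes were lower at 44 h where they were called. Of all genes tested, 11.6% were called lower and 8.3% higher between 44 h and 0 h. Of 22 genes of the lysosome membrane and its proton pump, 8 fell and 0 rose, with a median log2 fold change of -0.19. ATP6AP2, an accessory subunit of the proton pump, stood at 94.2 ± 3.83 CPM at 44 h, against 130 ± 4.75 CPM at 0 h (log2 fold change -0.46, edgeR adjusted p 4.75e-05), and the membrane protein CD63 at 9.50 ± 1.16 CPM, against 16.2 ± 2.12 CPM (-0.77, 0.000326). Of 29 lysosomal enzymes, 8 fell and 0 rose, with a median of -0.19. The protease CTSB (cathepsin B) stood at 498 ± 29.8 CPM at 44 h, against 677 ± 81.9 CPM at 0 h (-0.44, 0.000288). These 3 calls remained in every alternative, but the counts did not: 5 membrane and pump genes were called without 0 h replicate 2 or 44 h replicate 1. For the enzymes the count was 5 without 0 h replicate 2, 4 without 44 h replicate 1 or 4, 3 without 0 h replicate 4 and 2 without 44 h replicate 2.

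Of 10 transcription factors of autophagy and lysosome genes, 6 rose and 0 fell, where 8.3% of all genes tested were called higher; the median log2 fold change was 0.24. HIF1A, the hypoxia factor, stood at 339 ± 11.9 CPM at 44 h, against 274 ± 21.86 CPM at 0 h (0.30, edgeR adjusted p 0.00279), and TFE3, a paralog of TFEB, at 140 ± 1.43 CPM, against 117 ± 12.4 CPM (0.26, 0.0122). The count was 3 with library totals alone as the scaling, 3 without 44 h replicate 1 and 2 without 0 h replicate 2, and TFE3 was lost without 0 h replicate 2 (0.0829) or 3 (0.0514). Of 24 genes of mTORC1, AMPK and ULK control, 3 rose and 4 fell: MTOR, the kinase that holds the ULK complex in check, stood at 105.96 ± 2.003 CPM at 44 h, against 84.9 ± 4.93 CPM at 0 h (0.32, 0.00697), and LAMTOR2, which anchors mTORC1 at the lysosome, at 5.66 ± 0.235 CPM, against 10.3 ± 1.099 CPM (-0.87, 0.000303). The share called of that list was 29.2%, beside 19.9% of all genes tested. That list had 3 calls without 0 h replicate 2 or 44 h replicate 1 and 4 without 0 h replicate 4.

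The lists below stand beside 19.9% of all genes tested that were called between 44 h and 0 h (8.3% higher, 11.6% lower). Of 14 further partners of the PI3-kinase and of membrane supply, 1 rose and 1 fell. ZFYVE1 (DFCP1), which marks the site of autophagosome formation, stood at 350 ± 18.9 CPM at 44 h, against 513 ± 1.92 CPM at 0 h (-0.55, edgeR adjusted p 4.32e-07), and WDFY3 (ALFY), an adaptor for protein aggregates, at 761 ± 47.8 CPM, against 605 ± 55.5 CPM (0.33, 0.0039). Of 13 other selective autophagy and mitophagy receptors, 1 rose and 2 fell, led by TEX264, a receptor for endoplasmic reticulum, at 39.5 ± 2.25 CPM at 44 h, against 65.7 ± 0.568 CPM at 0 h (-0.73, 4.85e-07). That count was 1 without 0 h replicate 2 or 44 h replicate 1 or 4. Of 13 genes of autophagosome to lysosome fusion, 1 rose and 3 fell; PLEKHM1, an adaptor for late endosomes, stood at 173 ± 14.7 CPM at 44 h, against 133 ± 2.39 CPM at 0 h (0.39, 0.000299), and VPS11, a tethering subunit, at 48.4 ± 1.97 CPM, against 61.9 ± 3.04 CPM (-0.35, 0.00424).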

How the data were processed

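The deposited table holds, per the file headers, total counts and TPM of each gene in each library; the authors' TPM (scaled by gene length and library) were used only to set levels of different genes beside each other. Per the labels' protocols, libraries were stranded and sequenced in pairs; per the submitters' processing notes, the build was Sscrofa11.1 and DESeq2 was used. Aligner, counter and strand setting are not given in the sources used here.

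Counts were fitted with edgeR 4.0.16 (R 4.3.3) on the whole table: filterByExpr with minimum count 10, TMM, 1 mean per time, all 12 libraries, robust quasi-likelihood F test, Benjamini-Hochberg adjustment over all genes tested, threshold 0.05. Standard errors are the log2 fold change divided by the square root of F. Named genes were those called in any comparison, TP53INP1, TP53INP2 and the 5 highest by TPM, plus, from each pathway list, called genes with the smallest adjusted p. The members and lists were chosen with earlier results of these data known. Alternatives were other scalings, filters, DESeq2 1.42.0, limma-voom (limma 3.58.1), a replicate block, leave-one-out fits, and fits restricted to the times compared. The code was tested on simulated data. The biological coefficient of variation was 10.6%, and 0 of 66 library pairs were identical. Results of some single genes are left out here.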

Additional observations from a re-analysis of the deposited data

How the results depend on the processing

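For the 17 autophagy genes named with values in every library, 1371 log2 fold changes under the alternatives kept their side of the threshold. A further 53 lost a call, 4 gained one and 0 reversed. Reversal was counted only where the gene was called in the main or the alternative fit, so sign changes of uncalled genes are not counted. Other scalings shifted the median of all genes by at most 0.0338 (log2). Leaving out 1 library gave 1 to 2 autophagy genes called between 12 h and 0 h, 0 to 1 between 28 h and 12 h, 0 to 3 between 44 h and 28 h, 8 to 14 between 44 h and 0 h and 4 to 10 for any change. DESeq2 called 10 for any change.

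For the pathway genes these ranges were 0 to 1, 0 to 1, 2 to 6, 22 to 39 and 11 to 22; all their alternatives were added after the data were seen. Between 28 h and 12 h, DESeq2 and edgeR with no filter each called 1 pathway gene, where the count was 0. A fit of the 44 h and 28 h libraries only called 7, and DESeq2 called 31 for any change.

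Libraries with the same replicate number were only weakly alike. In 10 such pairs the correlations lay between -0.01 and 0.13 (median 0.05, 2 over 0.1). In 44 pairs with different numbers the median was -0.02, the maximum was 0.07 and 0 were over 0.1. What a shared number stands for is not stated. A fit with the replicate block called 0 autophagy genes between 28 h and 12 h and 1 between 44 h and 28 h. Between 44 h and 0 h it did not call TP53INP1 (adjusted p 0.0739), GABARAPL2 (0.0842) or ATG2B (0.125).

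Over all genes, the 12 h against 0 h count of 27 was 64 with no filter, 68 by DESeq2 and 261 without 0 h replicate 3. The 28 h against 12 h count of 34 was 64 with no filter, 69 by DESeq2, 8 with the replicate block and 8 to 52 with 1 library left out. The 44 h against 28 h count of 609 was 981 in a fit of those libraries only and 394 without 44 h replicate 2. The 44 h against 0 h count of 2581 was 1706 without 0 h replicate 2, and the any-change count of 1705 was 1089 without 44 h replicate 1. The cause of these differences was not tested. Depth limits what can be said of ATG10, ATG9B, MAP1LC3C, TFEB, WIPI1 and ATG4C.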

Other observations

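GABARAP and ATG9A carry only an identifier in the gene table and were therefore outside the rule; an Ensembl name table gives their symbols, and they were added after the data were seen. GABARAP, the founding member of its ATG8 subfamily (ENSSSCG00000017936, chromosome 12, 52597083 to 52598194), stood at 11.8 ± 1.20 CPM at 0 h, 11.3 ± 0.0266 CPM at 12 h, 8.93 ± 2.56 CPM at 28 h and 6.08 ± 0.730 CPM at 44 h. It was lower at 44 h than at 0 h, with a log2 fold change of -0.95 (SE 0.18; Benjamini-Hochberg adjusted p 0.000479 by the quasi-likelihood test of edgeR), while its mean level was 89.4 TPM. The call remained in all 21 alternatives, with an adjusted p of at most 0.00606. ATG9A, the lipid scramblase of autophagosome seeds, had 13.8 ± 1.40 CPM at 44 h, against 11.12 ± 0.843 CPM at 0 h, a log2 fold change of 0.31 (SE 0.13; edgeR adjusted p 0.102). With both genes added, 14 autophagy genes were called between 44 h and 0 h, 6 higher and 8 lower, and 7 for any change. Among all genes tested, 19.9% were called between 44 h and 0 h (8.3% higher, 11.6% lower) and 13.1% for any change.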
